A study of Mus musculus with 2 samples.

Results

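The genes described here carry the fibroblast growth factor (FGF) signal at the cell surface: the ligands Fgf2, Fgf7 and Fgf10, the receptors Fgfr1, Fgfr2 and Fgfrl1, and the heparan sulfate proteoglycans Sdc1, Sdc2, Sdc4 and Gpc1. Members were all probes whose platform gene symbol is one of these 10 names, which gave 17 of the 25697 probes on the array and 10 of 16593 named genes. RNA came from cultured mouse embryonic fibroblasts, connective tissue cells of the embryo, labelled male and given either no agent or Fgf2. Each culture was read on 1 Illumina bead array, so no value has a replicate and no difference between the cultures could be tested. The labels give no dose, exposure time, strain, embryonic age or passage for either culture, and the design text calls both cultures Fgf2-free, so the direction of every difference rests on the titles and the agent labels. The series title concerns a growth factor protocol for generating induced pluripotent stem cells. The question the comparison addresses is what sets fibroblasts given Fgf2 apart from those without it.

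FGFs are secreted proteins that bind receptor tyrosine kinases, and most of them need heparan sulfate, a sulfated sugar chain, to hold ligand and receptor together. The chains are carried by core proteins, mainly the membrane-spanning syndecans and the lipid-anchored glypicans. Fibroblasts both respond to FGFs and make some of them, Fgf7 and Fgf10 being signals that mesenchymal cells send to epithelium.

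No gene of this group was 2-fold apart between the cultures, and 3 were too dim to compare. Over all 16593 named genes, 6898 were detected on both arrays, 472 only without Fgf2, 279 only with it and 8944 on neither. Of the 10 genes, 7 were detected on both arrays, and none of the 7 was 2-fold apart, where 4.32% of the 6898 genes detected on both arrays were (1.80% higher and 2.52% lower with Fgf2). The differences furthest from 0 were those of Sdc2, which was 1.93-fold lower with Fgf2, and Fgf7, which was 1.82-fold higher. Detection was called at a p-value below 0.01 for the probe, and a gene was represented by its brightest probe. The 10 member probes that were detected on both arrays, which belong to these 7 genes, all had a detection p-value of 0 on both. Differences are given on the log2 scale as the level with Fgf2 minus the level without it, after background correction and quantile normalization, whereas signals are the deposited intensities. The 7 genes had a median difference of 0.13, with 4 above 0 and 3 below. Over the 6898 genes the median was 0.03, with 3718 above 0 and 3168 below. Differences of the 6898 genes had an SD of 0.48. Where a gene had several detected probes, their differences varied with a pooled SD of 0.22 (4102 probes of 1749 genes). This SD includes probe-to-probe measurement error and leaves out how far separate cultures vary.

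The arrays detected 41.1% of all probes without Fgf2 and 39.9% with it, and their median signals were 149.3 and 148.5. The background, inferred from the detection p-values, had a mean of 127.9 without Fgf2 and 128.4 with it, and an SD of 14.5 on both. The dimmest detected probe had a signal of 171.0 without Fgf2 and 175.9 with it. Of 14 fibroblast markers with a probe, 12 were detected on both arrays, among them the intermediate filament gene Vim (signals 16635.1 and 19591.2) and the surface antigen gene Thy1 (10763.4 and 10220.5). Among these 12, 2 were at least 2-fold higher with Fgf2, Lum (2.39) and Pdgfra (1.36), and 3 at least 2-fold lower, Col1a1 (-2.53), Col1a2 (-1.85) and Pdgfrb (-1.80). Pdgfrb, dim with Fgf2 (196.5), was 3.48-fold lower after background correction and 2.05-fold lower without that correction. Lum, dim without Fgf2 (222.9), was 5.23-fold higher after background correction and 3.12-fold without it. The summed signal of the fibroblast markers above background was 53347 without Fgf2 and 48326 with it. For 14 epithelial markers the sums were 867 and 646 (3 detected on both arrays), for 9 macrophage markers 429 and 572 (2 detected), for 9 endothelial markers 409 and 633 (1 detected) and for 8 neural markers 617 and 759 (3 detected). Cdh1, Ptprc and Pecam1, which mark epithelial, blood and endothelial cells, were not detected on either array. Of the markers of other cell types detected on both arrays, Cd14 (1.58), Krt19 (1.32), Egfl7 (0.59), Mbp (0.52), Krt18 (0.36), Nes (0.33) and Lyz2 (0.17) were higher with Fgf2. Krt8 (-0.86) and Map2 (-0.11) were lower. Cd14, dim without Fgf2 (176.2), was 2.99-fold higher after background correction and 1.72-fold without that correction. Krt19, also dim without Fgf2 (208.8), was 2.5-fold higher after background correction and 1.69-fold without it. For Mbp (190.6 without Fgf2) these folds were 1.44 and 1.18. A further Nes probe went the other way and was detected only without Fgf2, at 182.1 against 163.8. Krt14, detected only without Fgf2, was at least 5.86-fold lower after background correction and 3.06-fold lower without that correction. Esam, detected only with Fgf2, was at least 1.26-fold higher after background correction and 1.11-fold without that correction. The part of other cell types in the differences below was not tested, and in cultures measured in bulk, fewer cells of a type and less RNA per cell cannot be told apart.

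**Figure D1:**
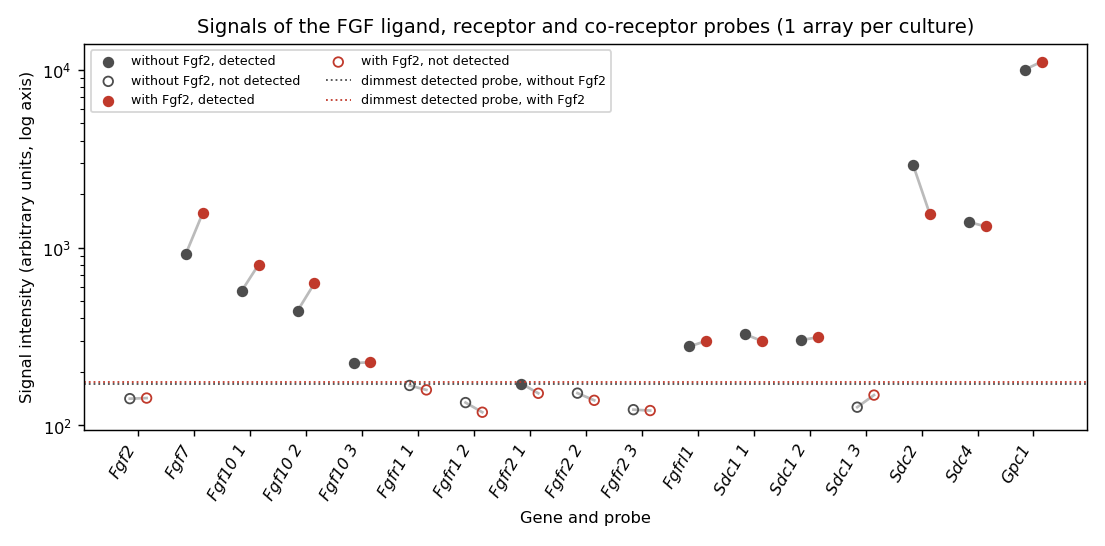
Signal intensity (log axis) of the 17 probes of the 10 genes on the array without Fgf2 (grey) and with Fgf2 (red), with open circles for probes not detected and dotted lines at the dimmest detected probe of each array. Sdc2 goes from 2916.2 to 1539.1 and Fgf7 goes from 921.2 to 1558.3, while the probes of Fgf2 and Fgfr1 lie below the lines. Heights of different probes cannot be compared.

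Among the ligands, Fgf7 and Fgf10 were detected and Fgf2 was not. Fgf7, also known as keratinocyte growth factor, had a signal of 921.2 without Fgf2 and 1558.3 with it. Its difference was 0.86, 3.9 times the pooled SD between probes, where the SD over the 6898 genes was 0.48. Of those genes, 2.7% lay at least as far above 0 and 6.0% at least as far from 0 in either direction. Fgf7 had 1 probe, so no other measurement of this gene on the arrays bears on that value.

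Fgf10, a close relative of Fgf7 that acts through the same receptor form on epithelial cells and is needed for lung and limb buds in the mouse, had 3 probes, all detected on both arrays. The brightest had signals of 571.9 without Fgf2 and 802.6 with it, a difference of 0.58, or 1.49-fold. A further probe had signals of 442.8 and 631.2, a difference of 0.63. The dimmest of the 3 gave nearly the same signal in both cultures, 224.7 and 226.5, with a difference of -0.03. It was still 6.68 and 6.77 background SDs above the mean background. So 2 probes placed Fgf10 higher with Fgf2 by about the same amount and 1 placed it level. Their range of 0.66 was equalled or exceeded by 9.0% of the 390 genes with 3 detected probes. All 3 are annotated to the same transcript record, and where each binds along it was not analysed here. With the mean of the probes, Fgf10 differed by 0.39.

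The sequences upstream of Fgf7 and Fgf10 are shown because these were the FGF ligands among the 10 genes that were detected. Each is the 250 bases before the annotated start, 5′ to 3′ on the coding strand, from RefSeq on GRCm38.p6, at chr2:126034408-126034657 (plus strand) for Fgf7 and chr13:118714449-118714698 (plus strand) for Fgf10. Capitals mark a GC box, GGGCGG on either strand.
Fgf7: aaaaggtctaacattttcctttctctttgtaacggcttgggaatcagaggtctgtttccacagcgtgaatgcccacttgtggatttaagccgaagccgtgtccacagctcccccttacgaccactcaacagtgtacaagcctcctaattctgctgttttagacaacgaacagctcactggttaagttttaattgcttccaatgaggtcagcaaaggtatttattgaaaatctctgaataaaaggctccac
Fgf10: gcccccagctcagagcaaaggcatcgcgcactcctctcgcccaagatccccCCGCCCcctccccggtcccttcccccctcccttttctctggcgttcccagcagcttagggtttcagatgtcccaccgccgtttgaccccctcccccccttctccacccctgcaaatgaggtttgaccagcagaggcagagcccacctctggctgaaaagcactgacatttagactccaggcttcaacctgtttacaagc
The Fgf10 window was 61.2% G or C with 8 CpG dinucleotides, and the Fgf7 window 43.6% with 6, around a median of 52.4% over 32851 such windows of the genome. Of 5 motifs searched on both strands, Fgf10 held the GC box, which 32.7% of all windows hold, and Fgf7 held none. The other motifs were the TATA box (TATAAA, in 12.4% of all windows), the AP-1 site (TGANTCA, 6.7%), the ETS site (CCGGAA, 12.0%) and the E-box (CACGTG, 6.0%). With 1 match across the windows shown, no motifs overlapped there, and a match or its absence describes only these letters. Of the 10 genes, 7 matched an entry of the promoter table, and Fgfr1, Sdc2 and Gpc1 did not. The GC box was not particular to Fgf10 among them. Fgfrl1 and Sdc4 held 4 each, Sdc1 held 3, Fgf2 held 1 and Fgfr2 held none. Fgfrl1 and Sdc4 also held 1 ETS site each, and Fgfrl1 held 1 E-box.

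The transcript of Fgf2, the factor that had been added to one of the cultures, was not well above background in either. Its single probe had a signal of 141.5 without added Fgf2 and 142.6 with it, with detection p-values of 0.16 and 0.15, 0.94 and 0.98 background SDs above the mean. All detection p-values were whole multiples of 1/798 within 0.01 of a step, as ranks against 798 reference values would be, and for Fgf2 127 and 121 of the 798 were as bright. The signal lay below that of the dimmest detected probe on each array, so no fold is given.

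The remaining ligand genes were nearly all below detection. Of 22 FGF ligands with a probe, 3 were detected on both arrays, 2 only without Fgf2 and 17 on neither. Over all 16593 named genes these counts were 6898, 472 and 8944, with 279 detected only with Fgf2. The median difference of the 3 ligands detected on both arrays was 0.58. The third of them, Fgf13, an FGF homologous factor that stays inside the cell, differed by 0.04. Fgf5, a secreted FGF that controls hair length in mice, was detected only without Fgf2 (187.0 against 164.0). It was at least 1.18-fold lower with Fgf2 after background correction and 1.14-fold lower without that correction. Fgf23, a hormone of phosphate balance, was detected only without Fgf2 too, at 171.9 against 165.0, but too dimly for a bound.

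The signal-transducing receptors were at the edge of detection or below it. A probe below detection does not show that the transcript is absent. Fgfr1, a main receptor for Fgf2 in mesenchymal cells, had 2 probes, neither of which was well above background. The brighter had signals of 167.9 without Fgf2 and 158.5 with it, with detection p-values of 0.014 and 0.038, or 2.76 and 2.08 background SDs above the mean. The dimmer had signals of 134.5 and 118.7, with detection p-values of 0.27 and 0.73. Both signals were lower with Fgf2, by 9.3 and 15.7 units, against a background SD of 14.5, and no fold can be given.

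Fgfr2, whose splice forms bind Fgf7 and Fgf10 in epithelium and other FGFs in mesenchyme, had 3 probes. The brightest had a signal of 171.9 without Fgf2, with a detection p-value of 0.0088, and 151.7 with Fgf2, with 0.071, so it was detected only without Fgf2. Its signal there lay below that of the dimmest detected probe on the other array, 175.9, so no bound on the fold exists. The other probes had signals of 152.0 and 138.5 (detection p-values of 0.069 and 0.21) and of 122.7 and 121.3 (0.61 and 0.65), all below detection. Of the 3 probes, 2 are annotated to one transcript record and 1 to another, and the splice form that each reads was not analysed here.

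Fgfrl1, a receptor-like protein that binds FGFs and lacks the tyrosine kinase domain, was detected on both arrays, with a signal of 278.2 without Fgf2 and 298.8 with it. Its difference was 0.16, smaller than the pooled SD between probes. Fgfr3 and Fgfr4, the other FGF receptor kinases, were detected on neither array.

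Of 14 receptor and co-receptor genes listed, 6 were detected on both arrays, 1 only without Fgf2 and 7 on neither, and the median of the 6 was 0.03. The 1 gene of these 6 that was 2-fold apart, beside 4.32% of the 6898 genes, was Ncam1, a cell adhesion molecule that can bind FGF receptors. Its signal was 386.3 without Fgf2 and 188.8 with it, 3.67-fold lower after background correction and 2.07-fold lower without that correction. A second Ncam1 probe was detected only without Fgf2, at 219.7 against 154.5. Flrt3, a membrane protein that interacts with FGF receptors, differed by -0.26, and Cdh2, Flrt2 and Fgfbp3 by 0.01, 0.05 and 0.09.

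**Figure D2:**
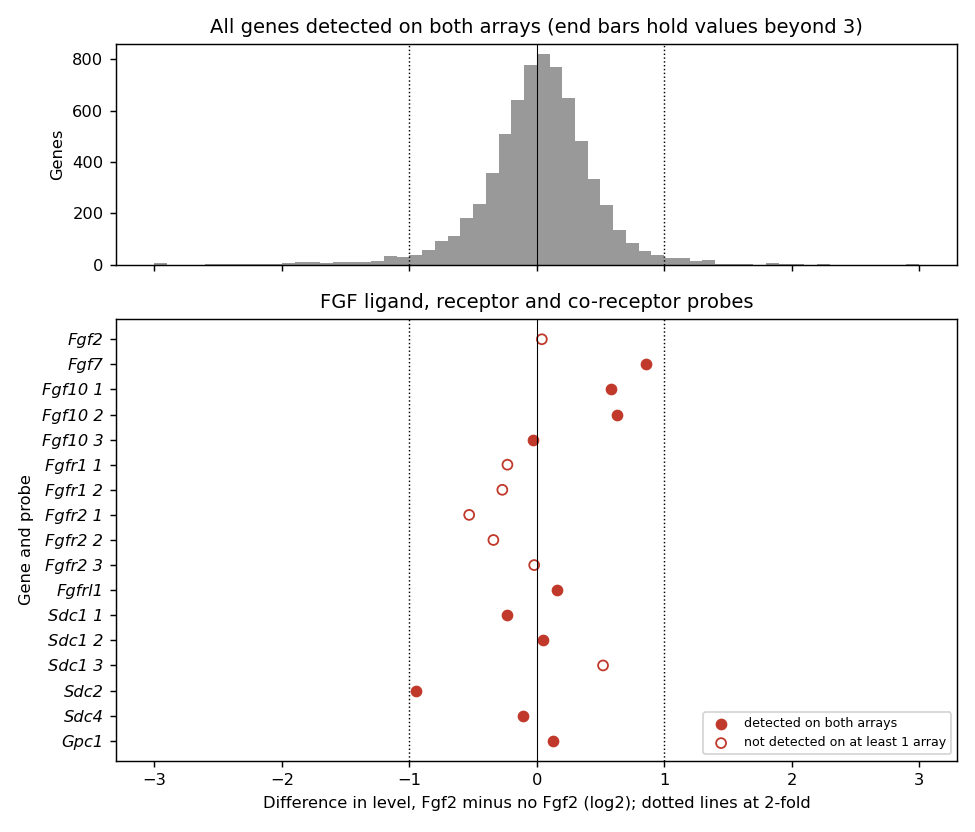
Upper panel: number of genes detected on both arrays by difference in level (log2, Fgf2 minus no Fgf2). Lower panel: the difference of each of the 17 probes, filled where detected on both arrays, with dotted lines at 2-fold; all 17 lie inside the lines, Sdc2 (-0.95) and Fgf7 (0.86) nearest to them.

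All 4 heparan sulfate proteoglycans were detected on both arrays, and Sdc2 had the difference furthest below 0. Sdc2, or fibroglycan, the syndecan typical of mesenchymal cells, had a signal of 2916.2 without Fgf2 and 1539.1 with it. Its difference was -0.95, 4.4 times the pooled SD between probes, where the SD over the 6898 genes was 0.48. Of those genes, 2.7% lay at least as far below 0 and 4.8% at least as far from 0 in either direction. It came just short of 2-fold, and with cyclic loess normalization it passed it, at -1.02, beside 2.65% of genes at least 2-fold lower under that setting. The gene had 1 probe.

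The other syndecans differed by less. Sdc4, which joins integrins at focal adhesions, had signals of 1393.1 without Fgf2 and 1316.2 with it, a difference of -0.11. Sdc3, not among the 10 genes, had signals of 1098.3 and 1280.2, a difference of 0.23. Sdc1, the syndecan typical of epithelial and plasma cells, had 3 probes that did not give 1 direction. The brightest had signals of 325.8 and 298.2, a difference of -0.23. The next had 302.6 and 313.2, a difference of 0.05. The dimmest, at 126.7 and 148.2, was not detected on either array, with detection p-values of 0.46 and 0.10. The detected Sdc1 probes therefore lay on either side of 0, within about 1 pooled SD of it.

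Gpc1, a lipid-anchored glypican that binds Fgf2 and takes part in its signalling, had a signal of 10050.1 without Fgf2 and 11153.6 with it. The difference was 0.13, less than the pooled SD between probes, and 71.4% of the 6898 genes lay at least as far from 0. The other detected glypicans lay below 0. Gpc4 had signals of 817.8 without Fgf2 and 393.2 with it and was 2.55-fold lower. Gpc3, an inhibitor of growth that is mutated in a human overgrowth syndrome, differed by -0.54 by its brighter probe (799.2 and 587.9). Its dimmer probe, at 585.8 and 354.3, was just past 2-fold lower. Gpc6 was detected only without Fgf2, at 208.2 against 146.0. It was at least 1.52-fold lower with Fgf2 after background correction and 1.43-fold lower without that correction. Gpc2 differed by -0.11, and Gpc5 was detected on neither array.

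Over 14 heparan sulfate core proteins, 12 were detected on both arrays, with a median of -0.14. Of these 12, 4 lay above 0 and 8 below, where 3718 and 3168 of the 6898 genes did. At least 2-fold apart were 1 in each direction, Gpc4 lower and Tgfbr3 higher, beside 2.52% lower and 1.80% higher of the 6898 genes. Tgfbr3, or betaglycan, which carries heparan sulfate and presents TGF-beta to its receptors, had signals of 453.7 without Fgf2 and 946.5 with it and was 2.41-fold higher. Its second probe, detected only with Fgf2, had signals of 157.9 and 225.1. The basement membrane proteoglycan genes Hspg2, Agrn and Col18a1 differed by -0.33, 0.16 and -0.17, and a further detected probe of Col18a1 gave 0.37.

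The enzymes that build and trim heparan sulfate had members on both sides. Of 34 listed, 28 had a probe named here, and 14 were detected on both arrays, 1 only without Fgf2, 2 only with it and 11 on neither. The median of the 14 was -0.06, with 6 above 0 and 8 below, beside 3718 and 3168 of the 6898 genes. Of the 14, 1 was 2-fold apart, beside 4.32% of the 6898 genes. That gene was Sulf1, an extracellular sulfatase that removes 6-O-sulfate groups and so weakens FGF binding to its receptor complex. Its signal was 2030.1 without Fgf2 and 1063.8 with it, 2.02-fold lower, and 1.91-fold without background correction.

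Enzymes that add sulfate differed in both directions. Hs6st1, which adds 6-O-sulfate, the group that Sulf1 removes, had signals of 534.4 without Fgf2 and 369.9 with it. Its difference was -0.75, and -0.55 without background correction. Hs3st1 and Hs2st1, which add sulfate at other positions, differed by 0.89 and 0.51, and by 0.51 and 0.44 without background correction. Hs3st1 was dim, at 221.6 and 321.2. Hs3st3a1, which also adds sulfate, differed by 0.18. Papss1, which makes the sulfate donor, had probes at 0.65 and 0.44, whereas Papss2, which does the same, was detected only without Fgf2. Papss2 was at least 1.37-fold lower with Fgf2 after background correction and 1.26-fold lower without that correction. Of the chain polymerase pair, Ext1 differed by -0.60 (signals 2402.5 and 1590.0) and Ext2 by -0.06. Xylt2, which attaches the first sugar of the chain to the core protein, was detected only with Fgf2, at 229.3 against 168.8. It was at least 1.96-fold higher with Fgf2 after background correction, but 1.35-fold higher without that correction.

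**Figure D3:**
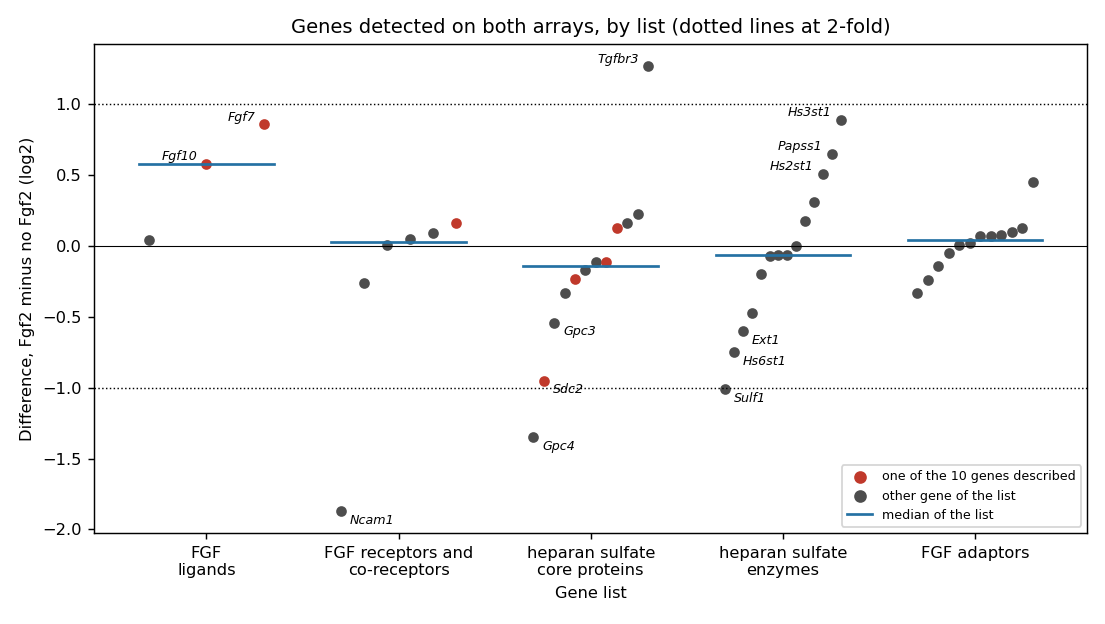
Difference in level (log2, Fgf2 minus no Fgf2) of each gene detected on both arrays in 5 gene lists, with the 10 genes described in red, other genes in grey, list medians as blue lines and dotted lines at 2-fold. Ncam1, Gpc4 and Sulf1 lie below the lower line and Tgfbr3 above the upper one, while all 12 adaptors lie between -0.33 and 0.45.

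Adaptors and kinases pass the signal on inside the cell. Of 24 listed, 16 had a probe named here and 12 were detected on both arrays, with a median of 0.04. Of the 12, 8 lay above 0 and 4 below, beside 3718 and 3168 of the 6898 genes. None of the 12 was 2-fold apart, beside 4.32% of the 6898 genes. The greatest difference was that of Shc1, an adaptor that recruits Grb2 to activated receptors, at 0.45, and its other detected probe gave 0.44. The docking protein gene Gab1 differed by -0.33, Grb2 by -0.24 and the phosphatase gene Ptpn11 by -0.14. Frs3, a docking protein of FGF receptors, passed detection without Fgf2 alone. It was at least 1.13-fold lower with Fgf2 after background correction and 1.12-fold lower without that correction.

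Sdc2 stayed the lowest and Fgf7 the highest of the 7 detected genes under other ways of processing the signals. Over the 9 settings that gave each gene a difference, Sdc2 ranged from -1.02 to -0.90, Fgf7 from 0.78 to 0.91 and Fgf10 from 0.39 to 0.62. Sdc1 and Sdc4 stayed below 0 and Fgfrl1 and Gpc1 above 0 in all 9, at no more than 0.25 from it. These settings reprocess the same 2 arrays, mostly through the same brightest probe, so a kept sign or order is no replicate check. The other detected probe of Sdc1 lay above 0, at 0.05. At a threshold of 1.5-fold, 2 of the 7 genes were called, Fgf7 higher and Sdc2 lower, beside 14.0% of the 6898 genes (6.76% higher and 7.25% lower), and Fgf10 missed it narrowly.

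The authors' processed table of log2 levels gave the same picture for the detected probes. In it Sdc2 was at 11.47 without Fgf2 and 10.49 with it, a difference of -0.98, the closest of the 10 genes to 2-fold. Fgf7 was at 9.61 and 10.52, a difference of 0.91. The Fgf10 probes again split, with differences of 0.61 and 0.67 for the brighter pair and -0.04 for the dimmest. Fgfrl1 differed by 0.16, Gpc1 by 0.11, Sdc4 by -0.11 and the detected Sdc1 probes by -0.24 and 0.04, each within 0.02 of the values above. Probes below detection spread further in that table than after normexp correction. The Fgf2 probe was at 3.82 without added Fgf2 and 3.92 with it. The brighter Fgfr1 probe was at 5.19 and 4.83, and the dimmer at 3.39 and 2.59. The Fgfr2 probes differed by -0.87, -0.79 and -0.05, in order of brightness, and the undetected Sdc1 probe by 1.32. None of these probes, each undetected on at least 1 array, has a measured fold in either table.

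**Figure D4:**
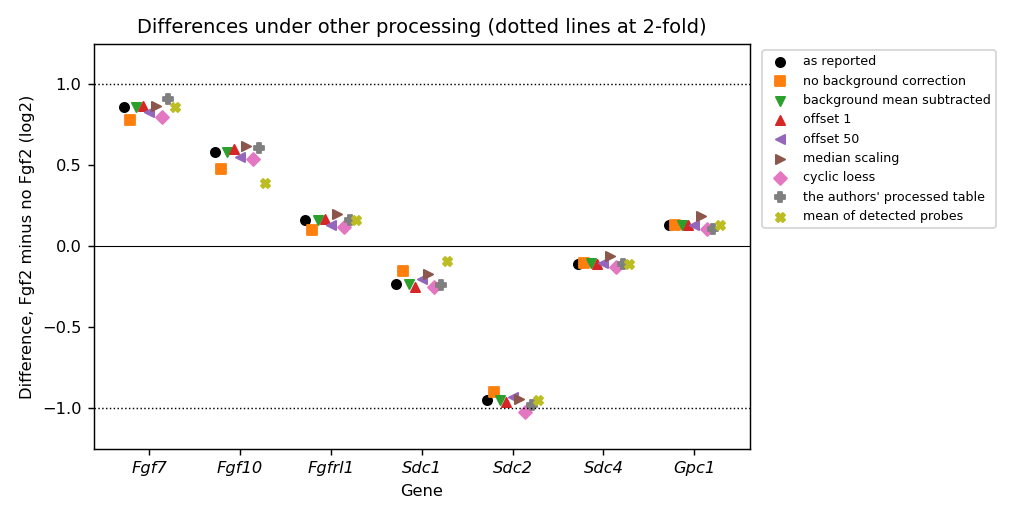
Difference in level (log2, Fgf2 minus no Fgf2) of the 7 genes detected on both arrays, as reported (black circles) and under 8 other settings, with dotted lines at 2-fold. Sdc2 crosses the lower line with cyclic loess (-1.02), and no gene changes sign among these settings of the same 2 arrays.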

How the data were processed

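Total RNA of 2 cultures was analysed on 1 array each, from 300 ng of RNA per the labels' protocols. The authors deposited a signal intensity and a detection p-value per probe and array, on a linear scale, with medians and maxima that differ between the arrays. They also deposited a table of log2 values, in the same order as the signals and with the same distribution on both arrays, made with a background correction not given in the sources used here. Per the submitters' processing notes the tools were BeadStudio 3.2, RMA and lumi, without their roles.

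Signals were corrected by normexp with limma 3.58.1 in R 4.3.3, using the background inferred from the detection p-values and an offset of 16, followed by quantile normalization and log2 transformation. Tables and figures used Python 3.11.15, pandas 2.3.3, numpy 2.4.6 and matplotlib 3.10.9. Only the background correction and normalization were tested on simulated data, which were built with the same inferred background. Gene calls, bounds and list counts were not tested in that way. By the platform annotation, 23978 probes had 1 gene symbol, 0 had several and 1719 had none, and 23962 were found in RefSeq, which updated their symbols. For a gene detected on 1 array only a bound is given, against the higher of its own level and the dimmest detected level on the other array (5.87 without Fgf2, 5.99 with it). Bounds hold on the background-corrected scale only, and the folds given beside them without that correction were smaller. With 1 array per group no test was run, and calls are folds past 2. Precision is limited by there being 1 array per culture.

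The members and gene lists were chosen with earlier results of these data known. Named were all members and, from each list, genes past 2-fold or otherwise the 4 with the greatest differences, and the 2 greatest bounds. Other list genes named, such as Gpc3, Sdc3, Hs6st1, Hs3st1, Hs2st1, Papss1 and Ext1, were chosen after their values were seen. No genes were sought with a pattern like a member's, since 2 arrays give each gene 1 difference. Alternatives changed the background correction, offset, normalization, table, probe rule, detection filter and threshold.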

Additional observations from a re-analysis of the deposited data

How the results depend on the processing

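Differences of the 7 genes detected on both arrays were recomputed under 8 other settings of background correction, offset, normalization, table and probe rule, those of Fgf2, Fgfr1 and Fgfr2 under the same settings except the mean of detected probes, and counts and list medians also under other detection filters. With no replicates, a difference or a median counted as moved when it shifted by the pooled SD between probes, 0.22, or more. Of 171 recomputed values 159 stayed within that range, or within 1.5 times for a count, and none of the 7 genes changed sign. Fgfrl1, Sdc4, Gpc1 and most list medians lay closer to 0 than 0.22, so they could fall to 0 without counting as moved. Each count entered as a total and by direction. The 159 is therefore no measure of how robust the differences are. Nor are the kept signs, since every setting reuses the same 2 arrays. The median of the receptor list, 0.03, was -0.01 with cyclic loess. The count of the 10 genes that were 2-fold apart went from 0 to 1 with cyclic loess (0 higher and 1 lower, Sdc2 at -1.02) and to 2 with a threshold of 1.5-fold (1 higher and 1 lower). The median of FGF ligands, 0.58 over 3 genes, was 0.04 with a detection p below 0.05 or with detection on at least one array (5 genes each) and 0.05 with no detection filter (22 genes), since undetected ligands then enter. Fgfr2, not detected with Fgf2, ranged from -0.87 to -0.18. No paired analysis was possible because each group holds 1 array.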

Other observations

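Probes below detection gave differences whose size depended on the table. For the third Sdc1 probe, not detected on either array, the difference was 0.52 after normexp correction and 1.32 in the authors' processed table. The dimmer Fgfr1 probe differed by -0.27 and -0.80, and the second Fgfr2 probe by -0.34 and -0.79. Of the 6 probes of the 10 genes that were detected on neither array, 0 were 2-fold apart after normexp correction and 1 in the authors' processed table. The same held over the array: of 13573 named probes detected on neither array, 0.258% were 2-fold apart after normexp correction with an offset of 16 and 14.0% in the authors' processed table, and with an offset of 1 the share was 6.33%. Of the 9251 named probes detected on both arrays the shares were 4.14% and 5.18%.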
